A study of Mus musculus with 313 samples.

Results

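The genes described here are 5 members of the tumour necrosis factor (TNF) family and of its receptors, chosen by name among 100 quantitative RT-PCR assays run on single precursor cells of mouse fetal liver. The ligands were Lta, Tnfsf11 and Tnfsf14, and the receptors were Cd27 and Tnfrsf9. The rule took their 5 rows of the table of Ct values across every cell. The Ct counts the PCR cycles needed for a visible signal, so a lower Ct stands for more cDNA. A transcript counted as detected in a cell at a Ct below 24, and its level was 24 minus the Ct, in cycles.

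TNF family ligands are trimeric proteins, made at the cell surface or secreted, that act on receptors of neighbouring cells and mostly lead to NF-kB signalling. Lymphotoxin and RANK ligand are the members known for the making of lymphoid organs: lymphoid tissue inducer (LTi) cells carry both and act on stromal cells where lymph nodes and Peyer's patches form. CD27 and 4-1BB, the products of Cd27 and Tnfrsf9, are known as costimulatory receptors of T and natural killer cells, and CD27 also marks early lymphoid progenitors.

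All cells came from pooled livers of fetuses at embryonic day 15, whose strain the labels do not name, and all lacked lineage markers and carried the IL-7 receptor α chain and integrin α4β7. The α4β7+ lymphoid precursors (aLP) had neither PLZF nor CXCR5, the innate lymphoid cell precursors (ILCP) had PLZF, and the LTi precursors (LTiP) had CXCR5 but no PLZF. The labels name no treatment and no genetic modification for any group, and how PLZF was read in the sort is not described here. Each cell name holds a 2 or a 3, which no label explains and which is taken here as the sort, since the series text speaks of independent sorting experiments. Cells of the same group and sort made up a pool, and pools served as replicates. For aLP there were 54 cells in sort 2, after 1 of 55 was left out, and 92 in sort 3. For ILCP there were 62 and 90, and for LTiP 14, all of sort 3.

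The median cell gave 28 to 36.5 detected assays in the aLP pools, 41 in both ILCP pools and 34.5 in the LTiP pool, so that ILCP cells gave more signal over the whole panel. The PLZF gene Zbtb16 was detected in 93.5% and 96.7% of ILCP cells of sorts 2 and 3, but also in 20.4% and 3.3% of aLP cells and in 7 of 14 LTiP cells. Of the 14 LTiP cells, 12 had Cxcr5, and the other 2, numbered 16 and 27, also lacked Tcf7 and every one of the 5 members. Of 12 LTi markers 8 were on the panel, the members Lta and Tnfsf11 among them; their mean share of detecting cells was 43.8% in LTiP and 5.71% to 17.1% elsewhere, and Il1r1 was at 0 throughout. Markers of other cell types were present too: the mean share was 5.98% to 32.8% for the 2 T cell markers on the panel (Lck and Lat), 0.741% to 6.79% for the 3 of the B lineage (Ebf1, Pax5 and Bcl11a), and 5.56% to 23.0% for the 4 of natural killer cells and ILC1 (Eomes, Tbx21, Ncr1 and Il2rb). Of these lists, 1 gene stood for myeloid and dendritic cells (Irf8, 33.3% to 79.3%) and 1 for megakaryocytes and mast cells (Itga2b, 0% to 34.4%).

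The 5 transcripts were spread differently over the groups. Lta and Tnfsf11 were seen most often in LTiP cells, Tnfrsf9 most often in both ILCP pools, Tnfsf14 in ILCP cells of sort 2, and Cd27 in ILCP cells and in aLP cells of sort 2. Cd27 was seen in no LTiP cell. None of the 5 passed the test between ILCP and aLP, and LTiP had 1 pool and no test.

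**Figure D1:**
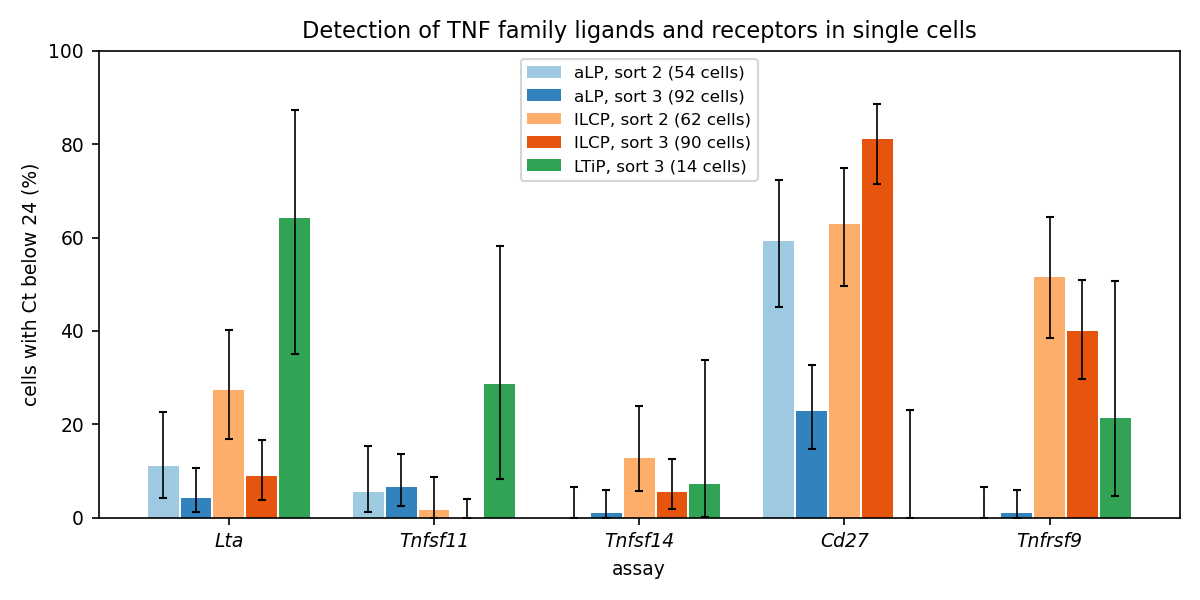
Share of cells, in percent, with a Ct below 24 for each of the 5 assays (horizontal axis); bars are the 5 pools and error bars exact 95% binomial intervals, which cover counting error only. Lta reaches 64.3% in the LTiP pool, Cd27 81.1% in the ILCP pool of sort 3 and 0% in LTiP, and Tnfrsf9 51.6% and 40% in the ILCP pools against 0% and 1.09% in aLP.

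Among the ligands, Lta encodes lymphotoxin α, which binds the TNF receptors as a homotrimer and the lymphotoxin β receptor when joined to lymphotoxin β. It gave a signal in 9 of 14 LTiP cells (64.3%, with an exact 95% interval of 35.1 to 87.2), 17 of 62 and 8 of 90 ILCP cells of sorts 2 and 3 (27.4%, 16.9 to 40.2, and 8.89%, 3.9 to 16.8), and 6 of 54 and 4 of 92 aLP cells (11.1%, 4.19 to 22.6, and 4.35%, 1.20 to 10.8). In order of share the pools ran LTiP, ILCP of sort 2, aLP of sort 2, ILCP of sort 3 and aLP of sort 3, and the intervals of each pair of neighbours overlapped. Within ILCP and within aLP the share was larger in sort 2 than in sort 3. In LTiP cells the level ran from 4.25 to 10.2 cycles with a median of 6.48. It ran from 3.97 to 9.78 (median 6.04) in ILCP of sort 2 and, in aLP of sort 2, from 4.72 to 11.5 (median 7.13). In sort 3 the cells with Lta held less of it, 4.31 to 6.04 cycles (median 4.63) in ILCP and 3.9 to 4.87 (median 4.69) in aLP, below the LTiP median in every one of these cells.

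Tnfsf11 encodes RANK ligand, which acts through RANK (Tnfrsf11a) in osteoclast formation and in the making of lymph nodes. It was detected in 4 of 14 LTiP cells (28.6%, 8.39 to 58.1), 3 of 54 and 6 of 92 aLP cells of sorts 2 and 3 (5.56%, 1.16 to 15.4, and 6.52%, 2.43 to 13.7), 1 of 62 ILCP cells of sort 2 (1.61%, 0.041 to 8.66) and 0 of 90 ILCP cells of sort 3, a count that allows up to 3.33%. Neighbours in this order overlapped. The 4 LTiP cells had levels of 4.73 to 6.38 cycles (median 5.53), and began just above the highest of the 6 aLP cells of sort 3, which spanned 4.17 to 4.72 (median 4.53). The 3 aLP cells of sort 2 spanned 2.81 to 4.51, and the single ILCP cell stood at 4.03.

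The 250 bases before the start of Tnfsf11 are shown because its transcript set LTiP apart from ILCP of sort 3. They lie at chr14:78308044-78308293 on the minus strand (GRCm38.p6, RefSeq), outside the gene model, and are printed 5′ to 3′ along the gene. Capitals would mark a match to 1 of 3 motifs searched on both strands: CTTTGA, bound by TCF and LEF factors such as TCF-1, the product of Tcf7; TGTGGT, bound by RUNX factors; and the consensus site of NF-kB. No letters of this window matched any of them.
Tnfsf11: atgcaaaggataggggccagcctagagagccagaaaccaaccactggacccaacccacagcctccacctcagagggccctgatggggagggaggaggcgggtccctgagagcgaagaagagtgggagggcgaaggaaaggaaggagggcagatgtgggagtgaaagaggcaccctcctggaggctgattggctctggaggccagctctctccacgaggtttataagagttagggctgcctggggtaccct

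Among all 32851 such windows of the table, 13.8% held CTTTGA, 14.0% TGTGGT and 4.11% the NF-kB site. The windows of Lta, Tnfsf14 and Cd27 held none of the 3 either. A match or its absence describes these letters and nothing more.

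Tnfsf14 encodes LIGHT, a ligand of the lymphotoxin β receptor and of the herpesvirus entry mediator. It was detected in 8 of 62 ILCP cells of sort 2 (12.9%, 5.74 to 23.9), 5 of 90 of sort 3 (5.56%, 1.83 to 12.5), 1 of 14 LTiP cells (7.14%, 0.181 to 33.9), 1 of 92 aLP cells of sort 3 (1.09%, 0.028 to 5.91) and 0 of 54 of sort 2, a count that allows up to 5.56%. All 5 exact intervals overlapped, that of aLP of sort 2 ending at 6.60%. Its levels ran from 0.42 to 4.68 cycles (median 3.2) in ILCP of sort 2 and from 1.55 to 3.84 (median also 3.2) in sort 3. The LTiP cell stood at 3.86 and the aLP cell at 3.49.

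Of the receptors, Cd27 encodes the receptor of CD70. It was detected in 73 of 90 ILCP cells of sort 3 (81.1%, 71.5 to 88.6), 39 of 62 of sort 2 (62.9%, 49.7 to 74.8), 32 of 54 aLP cells of sort 2 (59.3%, 45 to 72.4), 21 of 92 aLP cells of sort 3 (22.8%, 14.7 to 32.8) and 0 of 14 LTiP cells, a count that allows up to 21.4%. The only neighbours in this order whose intervals did not overlap were the 2 aLP pools, so that the largest step lay between sorts of 1 group. The level in detecting cells was 0.54 to 7.87 cycles (median 5.18) in aLP of sort 2 and 3.06 to 6.66 (median 3.78) in aLP of sort 3. The ILCP pools were close to each other, at 2.69 to 7.05 (median 4.87) and 2.30 to 7.08 (median 5.03).

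The numbers in the cell names run in ranges, and all aLP cells of sort 2 were numbered 97 or higher. In ILCP of sort 2, Cd27 was detected in 63.5% of the 52 cells numbered up to 96 and in 60% of the 10 above. In aLP of sort 3 it was detected in 16.7%, 20% and 30.3% of the cells of 3 successive ranges of 96 numbers, in each less often than in aLP of sort 2. The aLP cells of sort 3 also gave fewer detected assays, and those with Cd27 had a median of 32 other assays against 26 in those without. Among aLP cells with 30 to 45 detected assays the share was 66.7% of 39 cells in sort 2 and 47.4% of 38 in sort 3, a smaller gap than over all cells.

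Tnfrsf9 encodes 4-1BB (CD137), which is induced on activated T and natural killer cells. It was detected in 32 of 62 ILCP cells of sort 2 (51.6%, 38.6 to 64.5), 36 of 90 of sort 3 (40%, 29.8 to 50.9), 3 of 14 LTiP cells (21.4%, 4.66 to 50.8), 1 of 92 aLP cells of sort 3 (1.09%, 0.028 to 5.91) and 0 of 54 of sort 2, a count that allows up to 5.56%. The intervals of both ILCP pools lay wholly above those of both aLP pools, and LTiP overlapped with ILCP and with aLP. The level ran from 0.092 to 6.21 cycles (median 2.01) in ILCP of sort 2, 0.56 to 5.09 (median 2.34) in sort 3 and 0.22 to 2.1 (median 1.68) in LTiP. Of its 83 Ct values, 11 (13.3%) were at or above 24, and 19 of the 72 detected ones lay within 1 cycle of the limit, against 0 or 1 for the other members. The window before the first RefSeq start of Tnfrsf9 is shown because, among the 5 members, it separated ILCP from aLP most evenly in both sorts. It lies at chr4:150919905-150920154 on the plus strand (GRCm38.p6), outside the gene model, and the capitals mark its 1 match, CTTTGA on the opposite strand at position -79 from the start.
Tnfrsf9: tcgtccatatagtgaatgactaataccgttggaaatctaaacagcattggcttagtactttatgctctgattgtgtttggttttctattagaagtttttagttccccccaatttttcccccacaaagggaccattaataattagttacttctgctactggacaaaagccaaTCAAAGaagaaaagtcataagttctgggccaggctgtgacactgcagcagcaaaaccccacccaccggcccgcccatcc

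RefSeq lists a further start of Tnfrsf9 within the gene, whose window held 2 overlapping matches of the NF-kB site and none of the others. Neither window says anything of the factors bound in these cells.

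**Figure D2:**
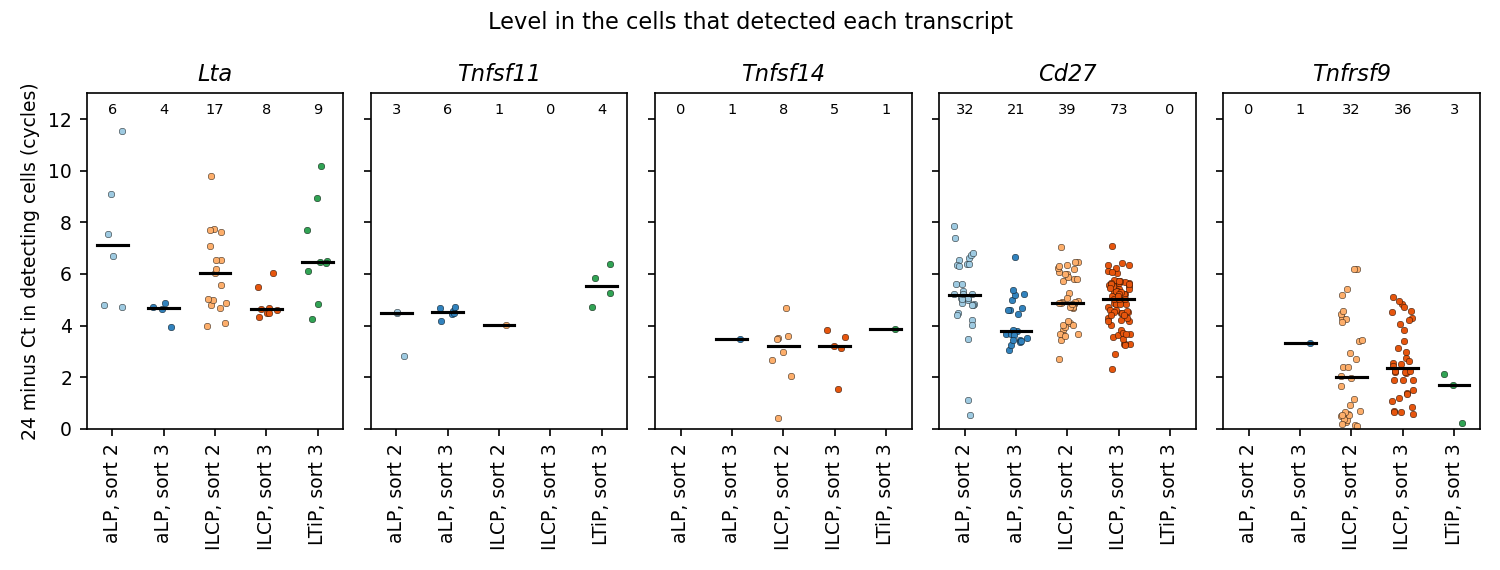
Level (24 minus Ct, cycles, vertical axis) in each cell that detected the transcript, by pool; bars are medians and the numbers at the top count the detecting cells. Lta reaches 11.5 cycles in aLP of sort 2 and stays at or below 6.04 in ILCP and aLP of sort 3, and Tnfrsf9 has medians of 2.01 and 2.34 in the ILCP pools; assays are not compared with each other on this scale.

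The comparison of ILCP with aLP asked what sets precursors with PLZF apart from those without it. It used the mean level over all cells of a pool, with 0 for a cell without detection, so that it depends both on how many cells detected a transcript and on how much they held. Tnfrsf9 was at 1.20 and 1.05 cycles in the ILCP pools of sorts 2 and 3 and at 0 and 0.036 in the aLP pools, with no overlap between the groups. The ILCP mean was 1.12 ± 0.11 and the aLP mean 0.018 ± 0.025 (SD over the 2 pools of a group). They differed by 1.11 ± 0.23 (SE), with 1.20 in sort 2 and 1.0 in sort 3, and the limma p was 0.00923, or 0.0700 after Benjamini-Hochberg adjustment over 91 assays. It therefore missed the threshold of 0.05, as the assay of rank 12 by p. It passed with the share of detecting cells in place of the level (a difference of 45.3 percentage points, adjusted p = 0.0292 in limma) and with detection limits of 26, 28 or none (adjusted p = 0.0459, 0.0366 and 0.0256). With a limit of 22 the difference fell to 0.43 cycles (limma, adjusted p = 0.167), and with the sort as a replicate block the adjusted p was 0.172. Among cells with 30 to 45 detected assays the difference was 0.96 cycles (limma, adjusted p = 0.184). Markers of T cells and of natural killer cells and ILC1 were also more frequent in ILCP, with mean shares in sorts 2 and 3 of 29.8% and 32.8% against 14.8% and 5.98%, and of 23.0% and 16.7% against 5.56% and 7.34%. Their part in the result was not tested.

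Cd27 had nearly all of its difference in 1 sort. Its pool means were 3.1 and 3.97 cycles in ILCP of sorts 2 and 3, and 3.09 and 0.96 in aLP. In sort 2 the groups differed by 0.053 cycles and in sort 3 by 3.02, which gave 1.53 ± 0.85 overall (limma, adjusted p = 0.310). Without the aLP pool of sort 2 the difference was 2.60 (adjusted p = 0.0201), and among cells with 30 to 45 detected assays it was 0.45 (adjusted p = 0.790). Both ILCP means lay above both aLP means, but in sort 2 by next to nothing.

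The differences of the ligands were about the size of their standard errors. Lta was at 1.66 and 0.43 cycles in ILCP of sorts 2 and 3 and at 0.82 and 0.20 in aLP, higher in ILCP in each sort, though ILCP of sort 3 lay below aLP of sort 2. Its difference was 0.54 ± 0.55 (limma, adjusted p = 0.505), and it was -0.080 without the ILCP pool of sort 2. Tnfsf14 was at 0.38 and 0.17 in ILCP against 0 and 0.038 in aLP, and differed by 0.25 ± 0.23 (limma, adjusted p = 0.498). Tnfsf11 was the only member with a lower level in ILCP, at 0.065 and 0 against 0.22 and 0.29, and differed by -0.22 ± 0.22 (limma, adjusted p = 0.505).

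Over the whole panel 5.49% of the 91 tested assays were called higher in ILCP and 1.1% lower, against 0 of the 5 members in either direction. At an unadjusted p under 0.05, 27 of the 91 passed, Tnfrsf9 alone among the members. The median difference of the members, 0.54 cycles, was that of all tested assays, since Lta stood at the median of both.

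Other TNF family genes were few on the panel. Of 26 listed, 4 were measured and tested, and 0 were called in limma, with a median difference of 0.58 cycles. Ltb, which encodes lymphotoxin β and lies close to Lta and Tnf on chromosome 17, gave shares of 33.9% and 13.3% in ILCP of sorts 2 and 3, 9.26% and 2.2% in aLP cells and 35.7% in LTiP cells, and differed by 0.92 between ILCP and aLP (limma, adjusted p = 0.310). The TNF receptor gene Tnfrsf1a was found in 54.8% and 47.8% of ILCP cells, 29.6% and 35.9% of aLP cells and 21.4% of LTiP cells (a difference of 0.85 cycles; limma, adjusted p = 0.202). The RANK gene Tnfrsf11a was found in 24.2% and 10% of ILCP cells, 13% and 6.52% of aLP cells and 14.3% of LTiP cells, and Tnfrsf1b, the other TNF receptor gene, in 7.78% to 14.8% of the cells of every pool. None of the 14 listed genes of TRAF and NF-kB signalling was on the panel, so the pathway below the receptors was not measured. Of 17 genes listed for the LTi programme beside the members 10 were on the panel and 8 were tested, 0 of them called, with a median of 0.28 cycles.

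The comparisons of LTiP with aLP and with ILCP asked what marks the cells gated as LTiP. Both used the same 14 LTiP cells, so they share them, and both were made within sort 3 and without a test. All 14 LTiP cells were numbered 1 to 96, but only 24 of the aLP and 19 of the ILCP cells of sort 3. The groups therefore differed in number range too. Against those cells alone, a choice made after seeing the data, the share of Lta differed by 60.1 points from aLP and 64.3 from ILCP. Tnfsf11 differed by 24.4 and 28.6 points, and Cd27 by -16.7 and -84.2. Cxcr5 was detected in 85.7% of LTiP, 45.6% of ILCP and 7.61% of aLP cells of sort 3. The comparison with ILCP therefore did not set cells with the Cxcr5 transcript against cells without it. Against aLP, the share of Lta was 59.9 percentage points higher in LTiP, that of Tnfsf11 22.0, that of Tnfrsf9 20.3 and that of Tnfsf14 6.06, while that of Cd27 was 22.8 points lower in LTiP (-22.8). The exact intervals did not overlap for Lta and overlapped for the other 4. Over all 100 assays, 19% had a wholly higher interval in LTiP and 3% a wholly lower one, against 1 and 0 of the 5 members. The median difference was 20.3 points for the members and 0 for all assays. The members' median was that of Tnfrsf9, whose difference was 6.06 points with a detection limit of 22 and 13.2 with levels scaled to the median detected Ct.

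Against ILCP the 5 members split. Lta was 55.4 points higher and Tnfsf11 28.6 points higher in LTiP, and Cd27 differed by -81.1 points, each with intervals that did not overlap. Tnfrsf9 differed by -18.6 and Tnfsf14 by 1.59 points, with overlapping intervals. Of all 100 assays 6% had a wholly higher interval in LTiP and 13% a wholly lower one, against 2 and 1 of the members. The median difference was 1.59 points for the members and -5.24 for all assays. For Tnfsf11 the interval of LTiP began at 8.39% and that of ILCP of sort 3 ended at 4.02%, while ILCP of sort 2, not part of this comparison, reached 8.66%.

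Cd27 was also undetected in LTiP cells when all groups were held to the same range of depth. Among sort 3 cells with 30 to 45 detected assays, it was detected in 0 of 10 LTiP cells, a count that allows up to 30%. It was detected in 76.5% of 68 ILCP cells and 47.4% of 38 aLP cells. Within this range the median depth still differed, at 35.5 detected assays in LTiP, 39 in ILCP and 33 in aLP. In the same cells Lta was found in 80% of LTiP, 4.41% of ILCP and 5.26% of aLP cells, and Tnfsf11 in 30%, 0% (of 68, which allows up to 4.41%) and 5.26%. Without the 2 LTiP cells that lacked Cxcr5, Lta was detected in 75% of the remaining 12, Tnfsf11 in 33.3% and Tnfrsf9 in 25%, since neither of the 2 cells had any member.

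Cell by cell, the 9 LTiP cells with Lta and the 4 with Tnfsf11 all had Cxcr5 and Tcf7, each of which 12 of the 14 LTiP cells had. If detection were unrelated, 7.71 of the 9 and 3.43 of the 4 would have each of them. Lta was highest in cell 54 (10.2 cycles) and cell 41 (8.96) and lowest in cell 89 (4.25). Of the 4 cells with Tnfsf11, 3 also had Lta (cells 3, 40 and 41), and cell 88 had Tnfsf11 at 5.24 cycles with no other member. Tnfsf14 was seen in cell 28 (3.86 cycles), and Tnfrsf9 in cells 40, 54 and 64 at 1.68, 0.22 and 2.1 cycles, 4 cells that all had Lta. Set against the PLZF transcript, Lta was detected in 5 of the 7 LTiP cells with Zbtb16 and in 4 of the 7 without.

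**Figure D3:**
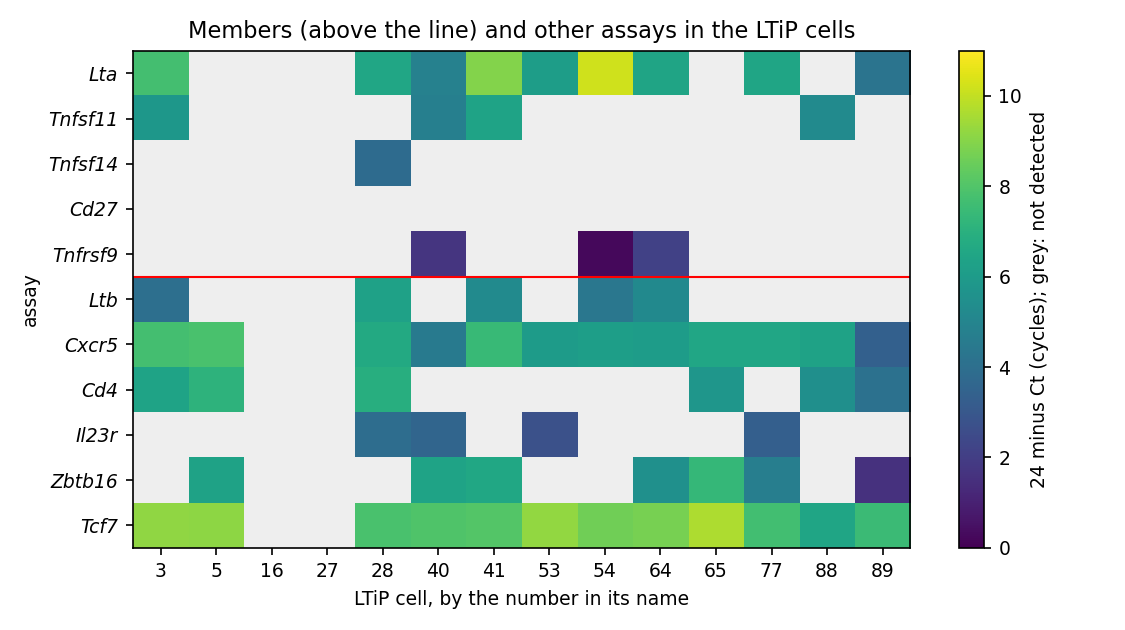
Level (colour, 24 minus Ct in cycles; grey, not detected) of the 5 members, above the red line, and of 6 other assays in each of the 14 LTiP cells, in the order of their numbers. Lta fills 9 columns, Tnfsf11 4 and Cd27 none, and cells 16 and 27 are grey throughout.

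Joint detection was described within pools, with the number of shared cells set beside the number that the 2 shares would give if detection were unrelated. Cells of 1 pool come from the same sort and differ in depth, so no p is given. Ligand here means Lta, Tnfsf11 or Tnfsf14, and receptor means Cd27 or Tnfrsf9. Ltb and the receptor genes Tnfrsf1a, Tnfrsf1b and Tnfrsf11a were not counted. Any ligand was found in 71.4% of LTiP cells, 35.5% and 13.3% of ILCP cells of sorts 2 and 3, and 13% and 12% of aLP cells. Any receptor was found in 79% and 85.6% of ILCP cells, 59.3% and 22.8% of aLP cells and 21.4% of LTiP cells. On this count LTiP cells had ligands more often than receptors, and the other 4 pools the reverse.

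Counted over the 5 members only, 7 of 14 LTiP cells had a ligand and no receptor, 3 had both and 0 had a receptor alone. In ILCP of sorts 2 and 3, 30 of 62 and 66 of 90 cells had a receptor alone, 19 and 11 had both (30.6%, 19.6 to 43.7, and 12%, 6.26 to 20.8), and 3 and 1 had a ligand alone. In aLP both kinds met in 2 of 54 and 1 of 92 cells, and the ligand stood alone in 5 and 10. Cells with 3 or more of the 5 transcripts numbered 10 and 8 in the ILCP pools, 1 in LTiP and 0 in aLP.

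**Figure D4:**
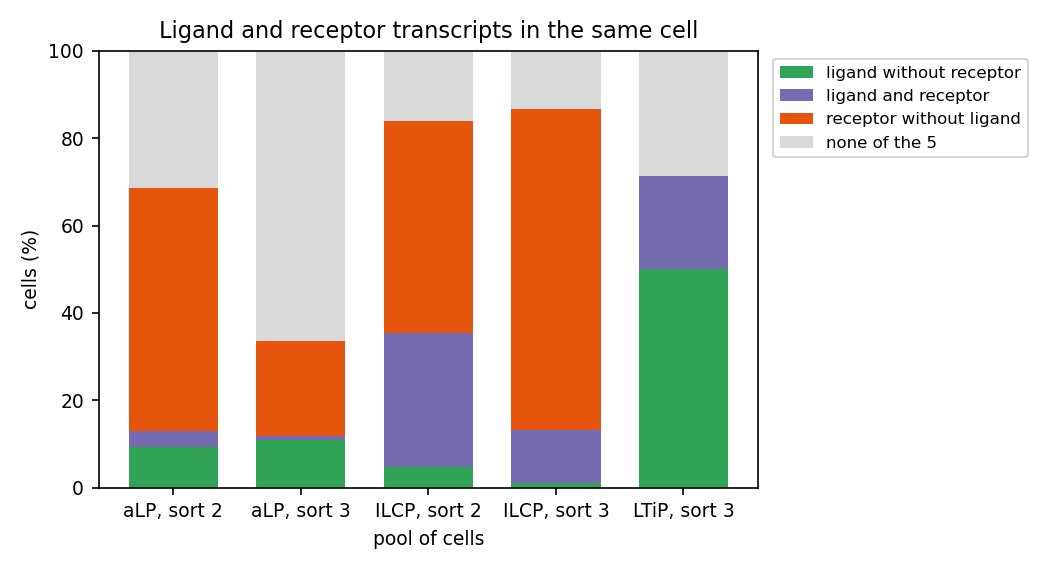
Share of cells (percent) in each pool with a ligand alone, with a ligand and a receptor, with a receptor alone, or with none of the 5 transcripts. Only Lta, Tnfsf11 and Tnfsf14 count as ligands, and only Cd27 and Tnfrsf9 as receptors. A ligand alone takes 50% of LTiP cells and 4.84% and 1.11% of ILCP cells, and a receptor alone 48.4% and 73.3% of ILCP cells and 0% of LTiP cells.

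Within ILCP, Lta lay mostly in cells with Tnfrsf9. In sort 2, 14 of the 17 cells with Lta had Tnfrsf9 (82.4%, 56.6 to 96.2), against 40% (25.7 to 55.7) of the 45 without, and 8.77 shared cells would be expected from the shares alone. In sort 3, 5 of 8 did (62.5%, 24.5 to 91.5) against 37.8% (27.3 to 49.2), with 3.2 from the shares alone. The intervals with and without Lta overlapped in sort 3 and not in sort 2. Cells with Lta gave more signal over the panel, a median of 43 other assays against 40 in sort 2 and 46 against 40.5 in sort 3. Among cells with 30 to 45 detected assays the difference was 50 percentage points in sort 2 and 4.10 in sort 3, where 3 cells with Lta were left.

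Ltb, the partner of Lta, was more frequent in cells with Lta in every pool except aLP of sort 3, where 0 of 4 cells with Lta had it. In ILCP of sort 2, 13 of the 17 cells with Lta had Ltb (76.5%) against 17.8% of those without, and 5.76 shared cells would come from the shares alone. For ILCP of sort 3 it was 3 of 8 (37.5%) against 11%. All 5 LTiP cells with Ltb had Lta, and in aLP of sort 2, 3 of 6 cells with Lta had Ltb against 4.17% of the others. Cells with transcripts for both chains of the membrane lymphotoxin heterotrimer were thus present in LTiP, in both ILCP pools and in aLP of sort 2.

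**Figure D5:**
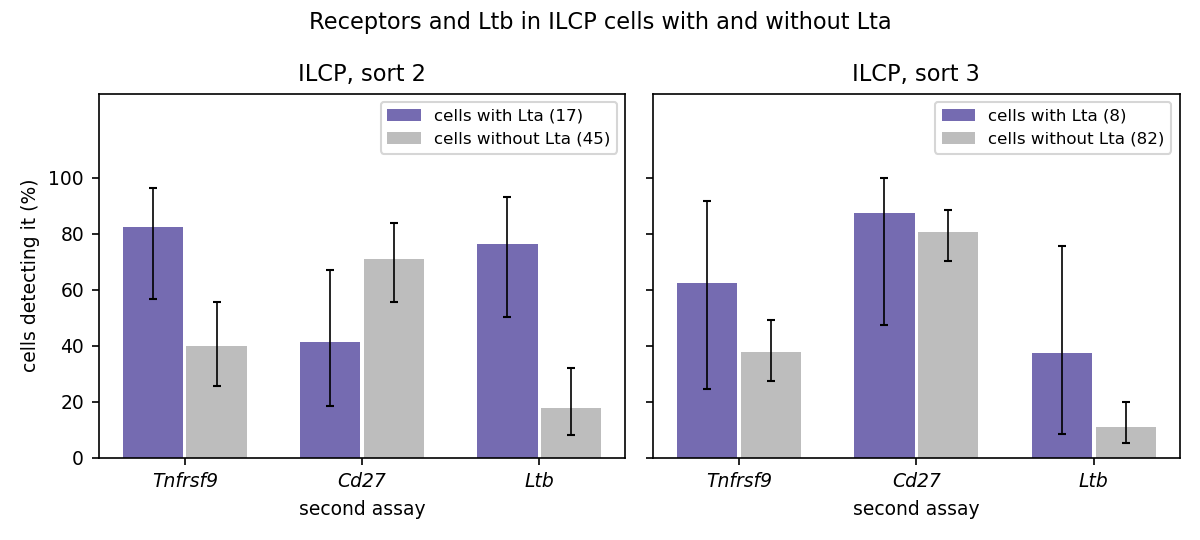
Share of ILCP cells (percent) that detected Tnfrsf9, Cd27 or Ltb, in cells with Lta (violet) and without (grey), by sort; error bars are exact 95% binomial intervals. In sort 2 Tnfrsf9 and Ltb are more frequent with Lta (82.4% against 40%, and 76.5% against 17.8%) and Cd27 less so (41.2% against 71.1%), while in sort 3 Cd27 is at 87.5% and 80.5%.

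In ILCP of sort 2 the share of Cd27 was lower in cells with Lta, while in sort 3 the direction depended on the setting. For ILCP of sort 2, Cd27 was detected in 7 of 17 cells with Lta (41.2%) against 71.1% of the others, and in sort 3 in 7 of 8 (87.5%) against 80.5%. This sort 3 difference of 7.01 percentage points became -3.70 with no detection limit and -10.3 in cells with 30 to 45 detected assays, where 3 cells with Lta were left. In aLP of sort 2, 1 of 6 cells with Lta had Cd27, against 64.6% of the others. In aLP of sort 3 it was 1 of 4 (25%) against 22.7%. The 2 receptors shared 22 ILCP cells in sort 2 and 32 in sort 3, against 20.1 and 29.2 from the shares alone. Tnfsf14, though rare, was found with Tnfrsf9 in 6 of 8 ILCP cells of sort 2 and 4 of 5 of sort 3, against 4.13 and 2 from the shares alone.

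Both RANK ligand and RANK transcripts were rare. Tnfsf11 and Tnfrsf11a shared 1 cell each in aLP of sort 3, ILCP of sort 2 and LTiP (0.391, 0.242 and 0.571 from the shares alone), and none in the other pools. Lta and Tnfsf11 shared 3 LTiP cells (2.57 from the shares alone), 2 aLP cells of sort 2 (0.333) and 1 ILCP cell of sort 2. With the TNF receptor transcript Tnfrsf1a, Lta shared 11 of 17 ILCP cells in sort 2 (9.32 from the shares alone) and 1 of 9 LTiP cells (1.93).

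Few aLP cells had a ligand in either sort. In sort 2 all 6 cells with Lta were among the 17 with Tcf7. Of these 6, 5 were among the 14 with Cxcr5 and 4 among the 11 with Zbtb16, although the gate was negative for CXCR5 and PLZF. Counting only the aLP cells with neither gate transcript, Lta was detected in 1 of 35 and 2 of 84 cells of sorts 2 and 3. In sort 2, most aLP cells with Lta thus had a transcript that the gate selects against, and in sort 3, 2 of 4 did. Of the 4 aLP cells of sort 3 with Lta, 2 had Tcf7, 2 had Cxcr5 and 0 had Zbtb16. In sort 3 the 6 aLP cells with Tnfsf11 had neither Cxcr5, Tcf7 nor Cd27. The shares alone would give 0.457, 1.04 and 1.37 shared cells. Of the 3 aLP cells of sort 2 with Tnfsf11, 2 had Cxcr5, 2 had Tcf7 and 1 had Cd27. The 6 cells of sort 3 also gave few assays, a median of 22 others against 28 in the cells without Tnfsf11.

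The shares of Tnfrsf9 and of Cd27 were each larger in ILCP cells with Cxcr5 than in those without, in both sorts. The exact intervals with and without Cxcr5 overlapped for both receptors in both sorts. Tnfrsf9 was detected in 66.7% of ILCP cells with Cxcr5 against 42.1% of those without in sort 2, and in 51.2% against 30.6% in sort 3. For Lta the shares were 33.3% against 23.7% and 7.32% against 10.2%, in opposite directions in the 2 sorts. Cd27 was at 66.7% against 60.5% in sort 2, with 16 shared cells against 15.1 from the shares alone, and at 90.2% against 73.5% in sort 3. In aLP, Cd27 was detected in 70.6% of the cells with Tcf7 against 54.1% of those without in sort 2, and in 68.8% against 13.2% in sort 3.

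The assays most like each member were taken by the phi coefficient of detection over the cells of a pool (from -1 to 1, with 0 for unrelated detection), among assays detected in 10% to 90% of the cells. Cells of a pool differ in depth, which can make assays go together, so these are descriptions. For Tnfrsf9 in ILCP, over 56 assays and both sorts, they were Il2rb (mean phi 0.46), a receptor chain for interleukins 2 and 15, the orphan receptor gene Rora (0.41) and the transcription factor gene Ets1 (0.38), and the least alike was the recombinase gene Rag2 (-0.24). Il2rb was found in 71.9% and 69.4% of ILCP cells with Tnfrsf9 in sorts 2 and 3, against 20% and 29.6% of those without. Rora was detected in 90.6% and 100% against 56.7% and 64.8%. The median of other assays was 42 in cells with Tnfrsf9 and 39 in those without, in both sorts.

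For Cd27 the nearest assays differed between the groups. In aLP, over 39 assays and both sorts, they were the HMG-box gene Sox4 (mean phi 0.53), Igfbp4 (0.40), which encodes a binding protein of insulin-like growth factors, and the cell-cycle inhibitor gene Cdkn1c (0.39), with Irf8 the least alike (-0.16). Sox4 was detected in 93.8% and 81% of aLP cells with Cd27, against 45.5% and 21.1% of those without. In ILCP they were Megf10 (0.35), the Notch target gene Hes1 (0.27) and the imprinted noncoding RNA H19 (0.27). Megf10 was detected in 41% and 52.1% of ILCP cells with Cd27, against 8.70% and 5.88% of those without.

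For Lta the nearest assays were read in 1 pool at a time. In ILCP of sort 2 they included Ltb (phi 0.55) and the IL-18 receptor gene Il18r1 (0.41), and the co-repressor gene Tle4 was the least alike (-0.40). Il18r1 was detected in 94.1% of cells with Lta against 48.9% of the others in sort 2 and 87.5% against 25.6% in sort 3. In aLP of sort 2 the nearest were Rora (0.63), Tcf7 (0.52) and Il18r1 (0.47), with the co-repressor gene Tle1 the least alike (-0.42). In LTiP they were Il7r (0.85), Tox (0.70) and Ltb (0.56), with Pira11 the least alike (-0.55), and all 9 cells with Lta had Il7r against 1 of the other 5.

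The rarer members rest on few cells. In ILCP of sort 2, Tnfsf14 was most like Irf1 (0.29), Igf2 (0.27) and Il13 (0.25) and least like Il7r (-0.23). In sort 3 Irf1 was detected in 0 of 5 ILCP cells with Tnfsf14 against 31.8% of those without, Igf2 in 20% against 28.2% and Il13 in 20% against 5.88%, so the first 2 went the other way. In LTiP, Tnfsf11 was most like Tnfrsf1b (0.65), Il2rb (0.47) and Hif1a (0.33) and least like Il18r1 (-0.41), over 4 cells. Tnfrsf9 was there most like Il12rb2 (0.78), Lta (0.39) and Ltb (0.34) and least like Tcf3 (-0.60), over 3 cells. None of its 3 nearest assays in LTiP was among its 3 nearest in ILCP.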

How the data were processed

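Single cells were assayed with a microfluidic Biomark system after 22 cycles of preamplification, per the labels' protocols. The values that the authors deposited are raw Ct values, treated here as a score in PCR cycles, with no normalization per the file headers. The rule by which a Ct was entered as missing is not given in the sources at hand. Of 11450 Ct values, 447 (3.90%) were at or above the limit of 24. Cells needed at least 1 of 4 housekeeping assays and 5 assays detected, which left out 1 of 313 cells. No per-cell scaling was applied.

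Assays seen in 5% or more of the cells of an aLP or ILCP pool (91 of 100, all 5 members among them) were tested with limma 3.58.1 (R 4.3.3; lmFit, eBayes, group as the only term) on 4 pool means, with Benjamini-Hochberg adjustment over all of them; the code was tested on simulated data. The p-values measure the spread between 2 pools a group, which may be technical. Same-numbered pools did not deviate together (correlation -0.047 over 91 assays). Shares carry exact Clopper-Pearson 95% intervals, and a share of 0 the limit of 3 cells; both cover counting error only and concern cells with a detected transcript. Each member was to be named with the 3 assays of highest phi and the 1 of lowest; 1 assay that this rule names is not reported here. Members and lists were chosen with earlier results of these data known. Alternatives varied the limit (22, 26, 28 or none), the scaling, the filters, the averaging, the cells and pools used and the sort as a block. Windows before gene starts came from RefSeq (GRCm38.p6). Figures were drawn with matplotlib 3.10.9.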

Additional observations from a re-analysis of the deposited data

How the results depend on the processing

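The number of assays called between ILCP and aLP was 6 and depended on several choices. It was 11 with a 20% assay filter, 13 with shares of detecting cells, 12, 11 and 16 with detection limits of 26, 28 and none, 18 with only the cells whose transcripts matched the gate, 1 with detecting cells only and 2 with the sort as a replicate block. Leaving out 1 pool at a time gave 0 to 20, with 20 without the aLP pool of sort 2 and 0 in limma without either ILCP pool (19 and 23 at an unadjusted p under 0.05). A group left with 1 pool is then assumed to vary like the other. Among the members, Tnfrsf9 also passed in cells whose transcripts matched the gate (a difference of 1.15 cycles; limma, adjusted p = 0.0329). No member was called in the main setting, so the block had no call of a member to end. The Lta difference turned to -0.52 with detecting cells only and to -0.080 without the ILCP pool of sort 2. The Cd27 difference between LTiP and aLP was -47.4 points in cells with 30 to 45 detected assays, and that between LTiP and ILCP -83.9 in cells whose transcripts matched the gate and -84.2 in cells numbered 1 to 96, a choice made after seeing the data. Within ILCP of sort 3, the excess of Tnfrsf9 in cells with Cd27 was 20.3 points and 5.77 in cells with 30 to 45 detected assays. In sort 2 it was 12.9 points, 29.5 with levels scaled to Actb, Gapdh and Hprt, and -1.21 in cells with 30 to 45 detected assays. Within LTiP, that of Tnfsf11 in cells with Lta was 13.3 points, -20 with no limit and -75 in cells whose transcripts matched the gate. Apart from the fewer cells, assays or pools that some of these settings leave, the cause was not tested. With 14 LTiP cells in 1 pool, a share of 0 allows up to 21.4%.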
